A study of Mus musculus with 6 samples.

Results

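Neurotrophins are secreted growth factors that keep developing neurons alive and shape their axons, dendrites and synapses. The set described here holds 6 genes given by name, of 55487 genes in the count tables. They are the ligand genes Bdnf and Ntf3, the Trk receptor tyrosine kinase genes Ntrk2 and Ntrk3, the p75 receptor gene Ngfr and the sortilin gene Sort1. All 6 passed the filter on low counts, as did 18237 genes in total. Brain-derived neurotrophic factor (Bdnf) signals through TrkB, the product of Ntrk2, and neurotrophin 3 (Ntf3) through TrkC, the product of Ntrk3. The p75 receptor binds every neurotrophin and, together with sortilin, their uncleaved precursors. In the postnatal cerebellum these factors are known for their part in granule cell migration and survival and in Purkinje cell dendrite growth, and p75 is known from the precursors of the external germinal layer.

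Single cerebella of male mice at postnatal day 14 gave 1 RNA library each, 3 from homozygous Galnt17 knockouts (KO, labelled Wbscr17KOKO, allele Galnt17tm1.1(KOMP)Vlcg) and 3 from B6C3 wild types (WT). B6C3 is a hybrid stock of C57BL/6J and C3H/He. Per the labels, homozygotes were not born alive on C57BL/6, so the knockouts came from breeding the allele into B6C3 animals, and the deletion is carried by the whole animal. The labels do not say whether the WT mice shared litters with the knockouts. Galnt17 encodes an enzyme of the family that starts mucin-type O-glycosylation.

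Reads counted in genes numbered 17111611 to 29840046 per library. Galnt17 was at 2.41, 3.44 and 3.13 CPM (counts relative to library size, adjusted with TMM factors) in KO and at 46.3, 42.8 and 46.8 CPM in WT, as the labels give the groups. Unmapped reads made up 13.8% to 17.2% of each KO library and 6.52% to 10% of each WT library. The labels give no batch or date, and the sample titles number KO and WT animals in separate runs. A difference in handling and the genotype therefore cannot be told apart in any value below. Markers of mature granule cells were present in every library (a sum over 10 genes of 6293 to 6451 CPM in KO and 5912 to 6444 CPM in WT), as were Purkinje cell markers (5006 to 5250 and 4137 to 4461 CPM) and oligodendrocyte markers (14060 to 14730 and 12760 to 12890 CPM). The Purkinje cell and oligodendrocyte sums were higher in every KO than in every WT library. Of 10 markers each, 2 passed in edgeR's quasi-likelihood test, higher in KO (Pcp2 and Car8, and Ermn and Cldn11). Markers of brainstem neurons summed to 3.83 to 5.23 CPM in KO and to 5.26, 5.4 and 15.7 CPM in WT replicates 1, 2 and 3, so WT replicate 3 stood apart. Over all genes, 302 of 18237 (1.66%) passed edgeR's quasi-likelihood test at a Benjamini-Hochberg adjusted p below 0.05, and 1921 (10.5%) without WT replicate 1.

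A pair of promoter stretches is shown for orientation, since RNA counts do not report on them. They come from RefSeq promoter windows on GRCm38, which matched 4 of the 6 genes, and 5′ to 3′ on the strand of the gene. Bdnf has 7 windows, which belong to separate starts whose transcripts share 1 coding exon, so a gene count adds up the transcripts of all its promoters. The Bdnf stretch was chosen because it holds the cyclic AMP response element of promoter IV, the element through which calcium and CREB act on this gene. It lies at chr2:109692387-109692416, and capitals mark the element, whose letters on the other strand are TGACGTGA. The Ngfr stretch was chosen because Ngfr had the largest difference of the 6 genes. It lies at chr11:95587736-95587948, upstream of the annotated gene on the minus strand, and capitals mark 3 GC boxes (GGGCGG), which are bound by Sp1 family factors.
Bdnf promoter IV: catatgacagcTCACGTCAaggcagcgtgg
Ngfr promoter: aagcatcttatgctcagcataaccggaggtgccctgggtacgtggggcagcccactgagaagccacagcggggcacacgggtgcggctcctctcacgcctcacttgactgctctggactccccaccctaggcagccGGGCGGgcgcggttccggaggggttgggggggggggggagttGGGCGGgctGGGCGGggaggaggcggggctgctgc
Both strands of the 250 bases before each start were searched, and motifs could overlap. TGACGTGA was in 0.35% of 32851 such windows, and among the windows of the 4 genes it was found in that 1 Bdnf window, 38 bases before the start site. GGGCGG was in 32.7% of all windows, and 4.09% held at least 4 of them, as the Ngfr window did. A match describes letters and does not show that a factor binds there.

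In edgeR's quasi-likelihood test the 6 genes were not called different between KO and WT, with Ngfr nearest to the threshold. Passing the threshold were 0 of 6 in edgeR's quasi-likelihood test and in limma-voom, and 1 of 6, Ngfr, by DESeq2 and by edgeR's exact test. Of all tested genes 1.66% passed edgeR's quasi-likelihood test, 0.784% with a higher and 0.872% with a lower level in KO. DESeq2 called 3.05% of all genes (1.44% lower), edgeR's exact test 4.94% (2.22% lower) and limma-voom 1.71% (0.866% lower). At an unadjusted p below 0.05 there were 3 of 6 (Ngfr, Ntf3 and Ntrk3), a level that 17.6% of all tested genes reached. The KO and WT values did not overlap in 1 of 6 genes, again Ngfr, against 23.7% of all tested genes (11.5% with KO higher and 12.2% with KO lower). The plot of values by library shows each gene with its spread.

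**Figure D1:**
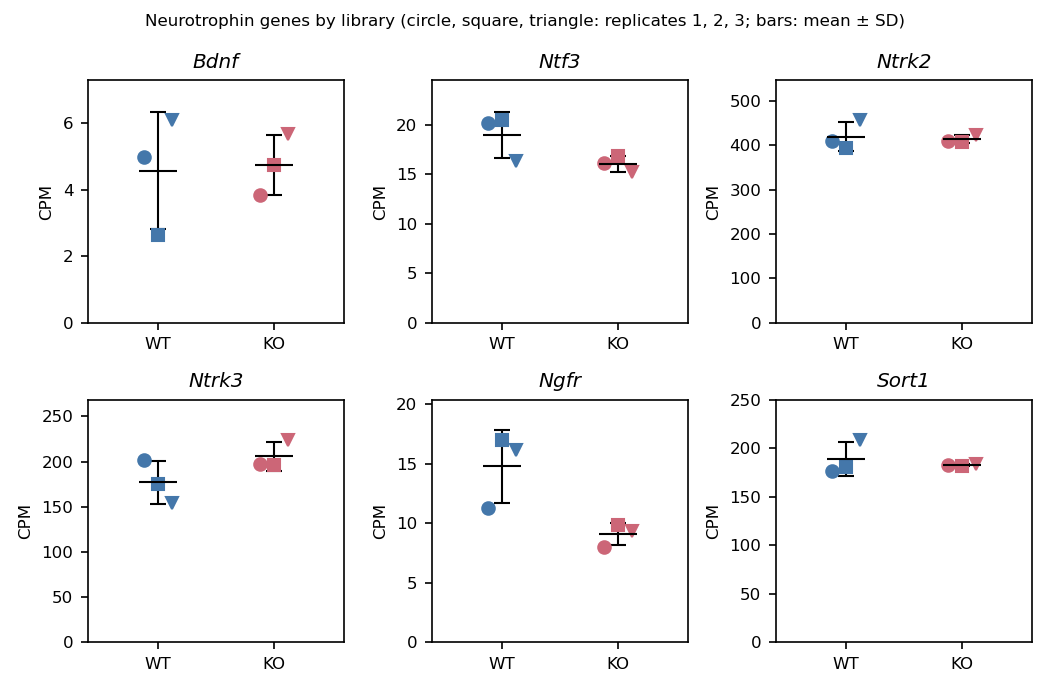
Level of each gene in CPM (vertical axis, from 0) in the 3 WT and 3 KO libraries, with symbols for replicates 1, 2 and 3 and bars for the mean ± SD. The groups are apart for Ngfr, where KO lies at 8.04 to 9.84 CPM and WT at 11.3 to 17 CPM, and overlap for the other 5 genes.

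Of the ligands, Bdnf (ENSMUSG00000048482, chromosome 2, 109674700 to 109727007, plus strand, GRCm38) was the scarcest of the 6 genes. Counts were 115, 110 and 114 in the KO libraries, in the order of their replicate numbers, and 120, 45 and 125 in the WT libraries, which is 3.85, 4.73 and 5.66 CPM against 4.97, 2.64 and 6.08 CPM. WT replicate 2 was the lowest and WT replicate 3 the highest of all 6 libraries, so the KO values lay inside the WT range. The means were 4.75 ± 0.904 and 4.56 ± 1.75 CPM (SD, n = 3 each), and the log2 fold change was 0.03 (SE 0.27, adjusted p = 0.96, edgeR's quasi-likelihood test). Its 95% interval runs from 0.68-fold to 1.54-fold, so differences within it were not detectable with these libraries. The sign was negative without KO replicate 3 (-0.10) and without WT replicate 2 (-0.22). Without WT replicate 2 or 3 the fold moved in opposite directions, to a log2 fold change of -0.22 or 0.28. The antisense gene Gm45346 overlaps 14.4% of the Bdnf exon length, and the counts do not use strand. Reads that fall in more than 1 gene are set aside as ambiguous (3.95% to 4.44% of each library). The Bdnf count can therefore lack reads of the overlap. The same holds for 4.47% of the Sort1 exon length, which the antisense gene Gm12523 overlaps.

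Ntf3 (ENSMUSG00000049107, chromosome 6, 126101412 to 126166910, minus strand), the ligand of TrkC, lay slightly lower in KO. It was at 16.1, 16.8 and 15.2 CPM in KO and at 20.2, 20.4 and 16.3 CPM in WT. WT replicates 1 and 2 were above every KO library, and WT replicate 3 was within the KO range. The means were 16.1 ± 0.829 and 19 ± 2.3 CPM (n = 3 each), with a log2 fold change of -0.24 (SE 0.10, unadjusted p = 0.0419, adjusted p = 0.266, edgeR's quasi-likelihood test). The fold change stayed negative in all 14 alternatives, from -0.34 to -0.18, and passed in 0 of them (adjusted p = 0.0997 to 0.557).

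The Trk receptor genes had far more counts than the ligands. Ntrk2 (ENSMUSG00000055254, chromosome 13, 58806569 to 59133970, plus strand) was at 410, 408 and 424 CPM in KO and at 408, 394 and 456 CPM in WT. The KO values lay within the WT range, whose highest value was WT replicate 3. The means were 414 ± 8.62 and 419 ± 32.2 CPM (n = 3 each), and the log2 fold change was -0.02 (SE 0.07, adjusted p = 0.909, edgeR's quasi-likelihood test). Its 95% interval, 0.893-fold to 1.09-fold, leaves out larger differences of the gene as a whole. Ntrk2 makes a full-length kinase and truncated forms that lack the kinase domain, the latter known mainly from astrocytes and Bergmann glia. The gene count adds these forms together, and a shift between them was not analysed here. Summed markers of astrocytes and Bergmann glia were at 4291 to 4353 CPM in KO and 4157 to 4427 CPM in WT.

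Ntrk3 (ENSMUSG00000059146, chromosome 7, 78175959 to 78738012, minus strand) lay slightly higher in KO. It was at 197, 196 and 224 CPM in KO and at 202, 175 and 154 CPM in WT. WT replicate 1 lay within the KO range, while WT replicates 2 and 3 were below every KO library. The means were 206 ± 15.8 and 177 ± 24.1 CPM (n = 3 each), with a log2 fold change of 0.22 (SE 0.09, unadjusted p = 0.0429, adjusted p = 0.268, edgeR's quasi-likelihood test). Without WT replicate 1 the log2 fold change was 0.32 and passed (adjusted p = 0.0229), in a fit in which 10.5% of all genes passed. Without a low-count filter it passed as well (adjusted p = 0.0243), where 4.85% of all genes passed. Over the 14 alternatives the fold change was positive throughout, from 0.13 to 0.32, with adjusted p values from 0.0229 to 0.609. Ntrk3 too has truncated forms, which the gene count does not separate.

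Ngfr (ENSMUSG00000000120, chromosome 11, 95568818 to 95587735, minus strand), the p75 receptor gene, had the largest difference. Counts were 240, 229 and 188 in the KO libraries and 273, 290 and 332 in the WT libraries, which is 8.04, 9.84 and 9.34 CPM against 11.3, 17 and 16.1 CPM. The groups did not overlap, all KO values being lower, and WT replicate 1 was the WT library closest to KO. The means were 9.07 ± 0.928 and 14.8 ± 3.07 CPM (n = 3 each), a 1.63-fold lower KO level (log2 difference -0.70, SE 0.16, unadjusted p = 0.00108). The adjusted p of 0.0577 in edgeR's quasi-likelihood test missed the threshold. It ranged from 4.09e-06 to 0.233 over 14 alternatives, of which 5 passed, and the fold change was negative in all 14 (-0.87 to -0.59). The lowest came from the fit without a low-count filter, where 4.85% of all genes passed. The adjusted p was 0.00206 by DESeq2, 0.00378 by edgeR's exact test and 0.0732 by limma-voom. Without WT replicate 1 the log2 fold change was -0.87 (adjusted p = 0.00192), in a fit in which 10.5% of all genes passed. Without any other single library Ngfr did not pass.

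Most markers of another tissue were lower in KO as well. The 10 choroid plexus markers, genes of the epithelium that secretes cerebrospinal fluid, summed to 38.13, 266 and 486 CPM in the KO libraries, by replicate number, against 1176, 1977 and 2115 CPM in the WT libraries. Of these 10 markers 8 were called lower in edgeR's quasi-likelihood test, 0 higher, and 2 did not pass. That test called 0.872% of all tested genes lower and 0.784% higher. Ttr, the transthyretin gene, carried most of this sum in every library but KO replicate 1 (4.256, 220.1 and 430.8 CPM in KO, 1096, 1861 and 1995 CPM in WT) and was not itself called (adjusted p = 0.154, edgeR's quasi-likelihood test). In KO replicate 1 most of the sum was Otx2, at 28.38 CPM there and 29.87 to 34.08 CPM in the other libraries. In both groups replicate 1 was lowest for Ngfr and for the marker sum, but replicate 2 was highest for Ngfr and replicate 3 for the sum. The 10 granule cell precursor markers summed to 516, 497 and 459 CPM in KO and 483, 543 and 493 CPM in WT. Of these, 0 passed in edgeR's quasi-likelihood test (1 higher and 3 lower at an unadjusted p below 0.05). Named after their values were seen, the 3 lower were Atoh1 (KO mean 1.43, WT mean 2.82 CPM), Mki67 (32.7 and 42.9) and Top2a (30.8 and 40.2). The higher 1 was Gli1 (24.4 and 19.6 CPM). The largest part of the sum was Ptch1 (205 and 186 CPM), whose groups overlapped. Of the 10 meningeal fibroblast markers 0 passed in the same test (283 to 314 against 261 to 286 CPM in sum, 2 higher at an unadjusted p below 0.05). That unadjusted level was reached by 17.6% of all tested genes. The part of these cell types in the Ngfr values was not tested. In whole tissue, fewer cells of a type and less RNA per cell cannot be told apart.

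**Figure D2:**
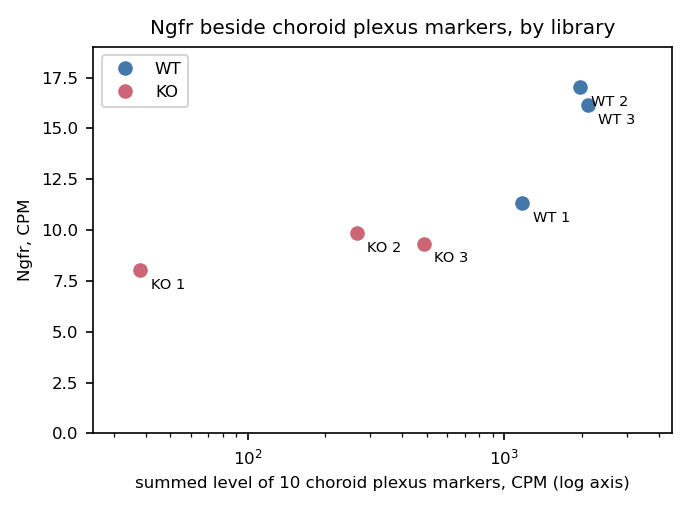
Ngfr in CPM (vertical axis) against the summed CPM of 10 choroid plexus markers (horizontal axis, log scale), 1 labelled point per library. The 3 KO libraries lie at 38.13 to 486 CPM of the markers and the 3 WT libraries at 1176 to 2115 CPM, with Ngfr lowest in KO replicate 1.

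Sort1 (ENSMUSG00000068747, chromosome 3, 108284082 to 108361511, plus strand) encodes sortilin, the co-receptor of p75 and a sorting receptor of the Golgi and endosomes. It was at 183, 182 and 184 CPM in KO and at 176, 181 and 208 CPM in WT. The KO libraries were nearly equal, and WT replicate 3 was the highest. The means were 183 ± 1.22 and 189 ± 17.4 CPM (n = 3 each), and the log2 fold change was -0.05 (SE 0.07, adjusted p = 0.758, edgeR's quasi-likelihood test). The 95% interval was 0.874-fold to 1.07-fold, and without WT replicate 3 the sign turned (0.04).

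**Figure D3:**
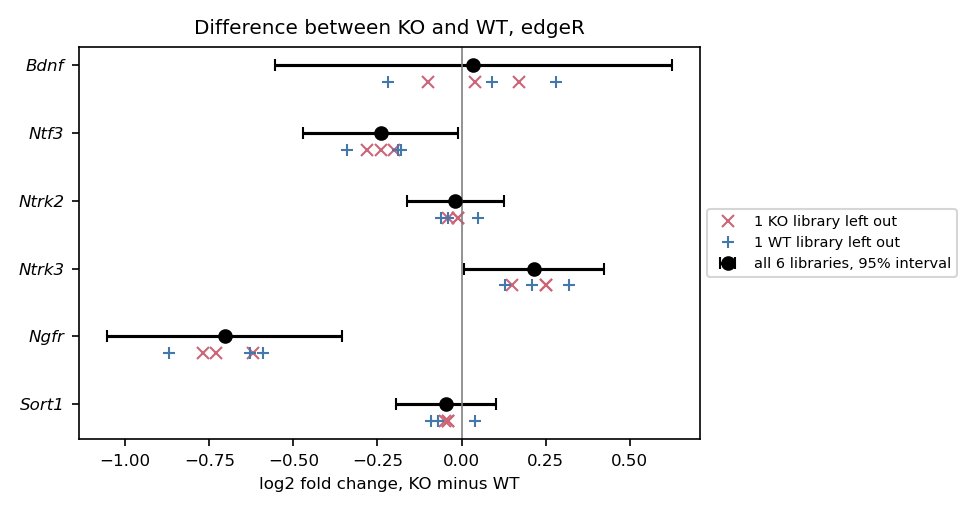
Log2 fold change of KO over WT for each gene, with its 95% interval from edgeR over all 6 libraries (black) and the values with 1 KO library (crosses) or 1 WT library (plus signs) left out. Ngfr stays between -0.87 and -0.59, and Bdnf has the widest interval and values on both sides of 0.

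All 6 genes varied more among the WT than among the KO libraries. The SD of log2 CPM was 0.61 in WT and 0.27 in KO for Bdnf, 0.32 and 0.15 for Ngfr, and 0.20 and 0.11 for Ntrk3. It was 0.18 and 0.07 for Ntf3, 0.13 and 0.01 for Sort1, and 0.11 and 0.03 for Ntrk2. The same direction held for the median of 10687 genes at 10 CPM or more, 0.10 in WT and 0.05 in KO.

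Levels of different genes were compared per length, as RPKM (CPM divided by the merged exon length in kilobases). Sort1 and Ntrk2 led with means over 6 libraries of 24.5 and 21.6 RPKM, above 85.7% and 83.2% of tested protein-coding genes. Ntf3 followed at 10.2 RPKM, then Ntrk3 at 6.34 RPKM, Ngfr at 3.47 RPKM and Bdnf at 0.749 RPKM, above 13.9% of those genes. Per merged exon Sort1 lay above Ntrk2 in every library. Their ranges overlapped across WT libraries (23.3 to 27.5 against 20.4 to 23.6 RPKM) but not across KO libraries (24 to 24.3 against 21.2 to 22 RPKM). The order of Sort1 and Ntrk2 turned when the longest transcript was used as the length (27.2 against 47.7 RPKM). Ntf3 and Ntrk3 did not overlap per merged exon (8.86 to 11.9 against 5.1 to 7.42 RPKM) but did per longest transcript. Ntrk3 lay above Ngfr, and Ngfr above Bdnf, in every library with either length. Ntrk2 depended most on this choice, with 19.29 kb of merged exons and 8.74 kb in its longest transcript.

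**Figure D4:**
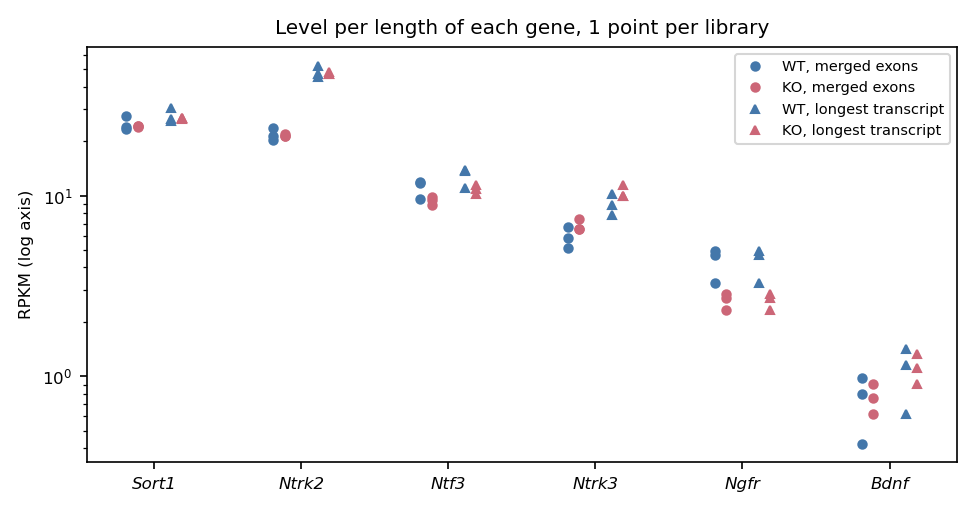
RPKM (vertical log axis) of each gene in each library, WT in blue and KO in red, with the merged exons (circles) or the longest transcript (triangles) as the length. Genes are ordered by the mean per merged exon, from Sort1 at 24.5 to Bdnf at 0.749 RPKM, and Ntrk2 moves above Sort1 with the longest transcript.

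Ratios within a library need no scaling between libraries and are given as descriptions. Ntf3 over Bdnf, the balance of the ligand genes, was 15.2, 12.9 and 9.74 in KO and 14.8, 28.1 and 9.75 in WT, with the outlying value in the library that had 45 Bdnf counts. Ntrk3 over Ntf3, the receptor and its own ligand, was 0.694, 0.661 and 0.837 in KO and 0.567, 0.487 and 0.535 in WT. Every KO value of this ratio was above every WT value, as Ntrk3 lay higher and Ntf3 lower in KO. Each gene by itself overlapped between the groups and did not pass edgeR's quasi-likelihood test. The share of gene pairs whose ratios separate the groups was not determined, and the ratio was not tested. Ntrk2 over Ntrk3 was 3.26, 3.26 and 2.96 in KO and 3.16, 3.52 and 4.63 in WT, and these overlapped. Ntrk2 over Ngfr was 9.11, 7.41 and 8.11 in KO against 6.45, 4.14 and 5.04 in WT, and here the groups were apart, as they were for Ngfr itself.

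The relatives of the 6 genes were sparse or did not pass. Of 8 listed, 7 were tested and 0 passed in DESeq2, limma-voom or either test of edgeR (quasi-likelihood and exact). In the quasi-likelihood test 2 were lower at an unadjusted p below 0.05 (28.6%, beside 17.6% of all tested genes). Ntf5, the gene of neurotrophin 4, had 0 to 7 counts per library and was not tested. The sorting receptor gene Sorl1 was the most abundant at 354 ± 10.5 against 362 ± 27.6 CPM, and Sorcs3 was at 18.1 ± 1.8 against 15.6 ± 2.87 CPM.

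Of 14 genes that cleave, sort or release neurotrophin precursors, 0 passed in the same 4 tests. At an unadjusted p below 0.05, 1 was higher and 3 were lower (28.6%, beside 17.6% of all tested genes). The median log2 fold change was 0.00, beside -0.01 over all tested genes. Cadps2, which is known to promote Bdnf release from granule cells, was at 480, 453 and 459 CPM in KO and 503, 520 and 505 CPM in WT. Its groups did not overlap, but the difference was small (log2 fold change -0.14, adjusted p = 0.242, edgeR's quasi-likelihood test). The carboxypeptidase gene Cpe was at 814 ± 6.63 against 943 ± 140 CPM, with its highest value, 1099 CPM, in WT replicate 3. Furin, the protease gene that cleaves the precursors, was at 76.9 ± 4.82 against 74.6 ± 2.5 CPM and is named after its values were seen.

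Downstream of the Trk receptors, 0 of 24 adaptor genes and 0 of 23 kinase cascade genes passed in edgeR's quasi-likelihood test. At an unadjusted p below 0.05, 3 and 4 were lower and 0 higher (12.5% and 17.4%, beside 17.6% of all tested genes). In edgeR's exact test 1 adaptor gene, the ubiquitin ligase gene Nedd4l, was called lower (adjusted p = 0.0444), and DESeq2 called 1 gene of the cascades lower. These tests called 4.94% and 3.05% of all genes in either direction, and 2.22% and 1.44% lower. A single call in lists of 24 and 23 genes is too few to tell the lists from these shares. The medians were -0.02 and -0.02. Kidins220, a scaffold of Trk receptors, was at a log2 fold change of -0.07 and the phosphatase gene Ptpn11 at -0.02. The kinase gene Akt2 was at a log2 fold change of 0.05.

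Of 22 genes of p75 partners and of the proteases that cleave it, 0 passed in edgeR's quasi-likelihood test, DESeq2 and limma-voom, and 1 (Ncstn) was lower in edgeR's exact test (adjusted p = 0.0304). That test called 4.94% of all genes in either direction and 2.22% lower. A single call in 22 genes is too few to tell the list from these shares. At an unadjusted p below 0.05 there were 4 lower and 0 higher (18.2%, beside 17.6% of all tested genes). Below 0 lay 18 of the 22 log2 fold changes, against 9392 of 18237 over all tested genes. The median was -0.07, beside -0.01 over all tested genes. Ncstn encodes nicastrin, a subunit of the gamma-secretase that cuts p75 within the membrane, and was at 66.8, 66.9 and 65.5 CPM in KO and 72.3, 79.1 and 81.9 CPM in WT. The p75 interactor gene Maged1 and Arhgdia, the most abundant of the list, were at log2 fold changes of -0.16 and -0.07 and did not pass.

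The genes known to respond to activity or to Bdnf had the lowest median of the lists. Of 17 tested, 0 passed in edgeR's quasi-likelihood test, DESeq2 called 2 lower (Spry4 and Dusp5), edgeR's exact test 3 (with Vgf) and limma-voom 1 (Spry4), where these tests called 1.44%, 2.22% and 0.866% of all genes lower. At an unadjusted p below 0.05, 1 was higher and 5 were lower (35.3%, beside 17.6% of all tested genes). Below 0 lay 15 of 17 log2 fold changes, against 9392 of 18237 over all tested genes. The median of the list was -0.34. The median was -0.005 without WT replicate 3 and -0.22 without KO replicate 1. Vgf, a neuropeptide precursor gene named after its values were seen, was at 21.3, 21.4 and 22 CPM in KO and 30.1, 32.8 and 57.3 CPM in WT. The groups did not overlap, and the highest value was again that of WT replicate 3. The log2 fold change was -0.89 (adjusted p = 0.0593, edgeR's quasi-likelihood test). It was -0.54 and passed without WT replicate 3 (adjusted p = 0.00678), and -1.07 and passed without WT replicate 1 (0.00607). Vgf passed as well in edgeR's exact test (0.00115), without a low-count filter and with the first strand column. Spry4, an inhibitor gene of receptor kinase signalling also named after its values were seen, was at 16.3, 16.2 and 19.4 CPM in KO and 22.4, 26 and 22.3 CPM in WT (log2 fold change -0.45, adjusted p = 0.059, edgeR's quasi-likelihood test). Its KO and WT values did not overlap, and WT replicate 3 was not the highest. Spry4 passed in DESeq2 (adjusted p = 0.0116), edgeR's exact test (0.00608) and limma-voom (0.0493). The phosphatase gene Dusp5 was at 92.8 ± 7.76 against 115 ± 13.8 CPM, and the synaptic scaffold gene Homer1 at 51.5 ± 1.57 against 51 ± 4.58 CPM. Fos, an immediate early gene named after its values were seen, ranged from 6.47 to 33.6 CPM within KO and from 19 to 30.7 CPM within WT. Whether the brainstem content of WT replicate 3 had a part in these values was not tested.

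As a contrast among other trophic factors, 0 of 10 tested genes of the GDNF and CNTF families passed in DESeq2, limma-voom or either test of edgeR (quasi-likelihood and exact), with 0 at an unadjusted p below 0.05. The shared cytokine receptor gene Il6st was at a log2 fold change of -0.06 and Cntfr, the receptor gene of ciliary neurotrophic factor, at -0.01. Over all these lists 117 genes were tested, and 2 were higher and 21 lower at an unadjusted p below 0.05 (19.7%, beside 17.6% of all tested genes). Of all 18237 tested genes, 1562 were higher and 1639 lower at that level. The lists were chosen with earlier results of these data known, and their lean to lower values was not tested. Below 0 lay 80 of the 117 log2 fold changes, against 9392 of 18237 over all tested genes. With upper-quartile scaling fewer list genes lay below 0, for example 10 instead of 15 of the 23 kinase cascade genes. The median log2 fold change of all tested genes was then 0.013 instead of -0.007.

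**Figure D5:**
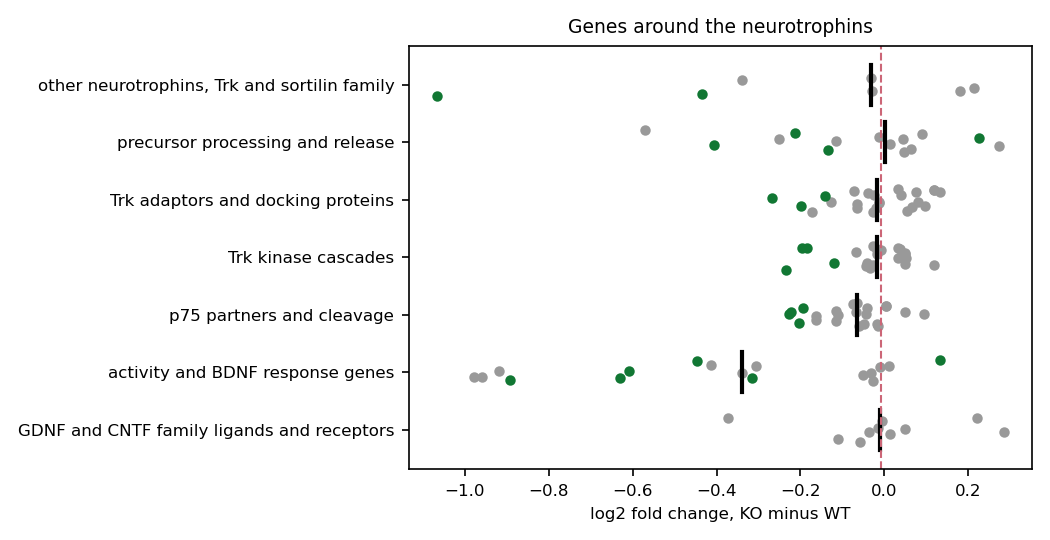
Log2 fold change of KO over WT for each tested gene of the 7 lists, with genes at an unadjusted p below 0.05 in green, the list median as a black bar and the median of all tested genes as a dashed line at -0.01. The activity and Bdnf response genes have the lowest median, -0.34.

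The genes whose log2 CPM followed each of the 6 most closely over the 6 libraries were found among 10277 protein-coding genes at 10 CPM or more. For Ngfr they were Anapc7 (Pearson r = 0.996) and Med9 (0.994), and 110 candidates had r above 0.95. For Bdnf they were Mdn1 (0.987) and Eln (0.983), for Ntf3 Cnn3 and Cand2 (0.994 each), and for Ntrk2 Sash1 (0.995) and Gnl3l (0.992). For Ntrk3 they were Mterf3 (0.997) and Tmem86b (0.993), and for Sort1 Tuba4a (0.997) and Naa25 (0.995). With only 6 libraries, such values are reached by many genes and are given as a description.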

How the data were processed

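RNA from 6 cerebella was purified with Trizol and DNase I and sequenced as paired reads of 150 bases from Illumina TruSeq libraries, per the labels' protocols. The deposited files hold raw counts per gene for each library, made with STAR 2.7.5a on GRCm38, per the submitters' processing notes, which also name edgeR 3.12. Ensembl release 102 is in the file names. The labels do not state how reads were counted. The column counted without strand was used, since the strand columns split evenly (49.9% to 50%), and the 4 lines of uncounted reads were left out of library sizes (unmapped, 6.52% to 17.2% of reads). Symbols and positions came from GENCODE M21 (GRCm38), which matched 55227 of 55487 identifiers (99.5%).

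Groups came from the strain label, and replicate numbers are names only. Each library is 1 animal. Genes were tested with edgeR 4.0.16 in R 4.3.3 (TMM, filterByExpr with minimum count 10 and minimum total 15, two-sided quasi-likelihood F test, 6.36 prior degrees of freedom, Benjamini-Hochberg adjustment over 18237 genes). SEs and 95% intervals were derived from the fold change and its F statistic. Alternatives were DESeq2 1.42.0, limma-voom 3.58.1, edgeR's exact test, other scalings, no filter, each strand column and leaving out each library. Scripts were tested on simulated data. Totals of 17111611 to 29840046 counts set the precision, and reads can be PCR copies. The 6 genes and the lists were chosen with earlier results of these data known. Named genes are the 6, Galnt17, called members and the 2 most abundant genes of each list, the 2 genes closest in pattern, and those said to be named after their values were seen. The results of some genes that this rule takes are not reported here.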

Additional observations from a re-analysis of the deposited data

How the results depend on the processing

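The count of genes higher and lower in KO (143 and 159) was 294 and 263 in DESeq2, 495 and 405 in edgeR's exact test, 803 and 820 without a low-count filter, and between 28 and 959 higher and 53 and 962 lower with 1 library left out, both highest without WT replicate 1. Ngfr passed in DESeq2 (log2 fold change -0.70), edgeR's exact test (-0.71), without a filter (-0.71), with the first strand column (-0.79) and without WT replicate 1, and not with the second strand column (-0.60, adjusted p = 0.149). Its leave-one-out values were -0.87 to -0.59. Ntrk3 passed without a filter (0.22) and without WT replicate 1 (0.32, in a range of 0.13 to 0.32). Signs turned only close to 0 or with 1 library left out. Ntrk2 was at 0.0012 with upper-quartile scaling, 0.0027 with the first strand column and -0.06 to 0.05 with 1 library left out. Bdnf was at -0.05 with the second strand column and -0.22 to 0.28 with 1 library left out, and Sort1 at -0.09 to 0.04. Calls in the lists around the neurotrophins (0 higher and 0 lower) were 0 and 3 in DESeq2, 0 and 5 in the exact test, 0 and 1 in limma-voom and in each strand column, 1 and 15 without a filter, and 0 to 1 and 0 to 13 with 1 library left out. With the longest transcript as the length, mean RPKM was 1.09 for Bdnf, 11.8 for Ntf3, 47.7 for Ntrk2, 9.71 for Ntrk3 and 27.2 for Sort1. The ratio Ntrk2 over Ntrk3 was then 4.55 in KO and 5.44 in WT, Ntrk3 over Ntf3 0.968 and 0.702, and Ntrk2 over Ngfr 18.1 and 11.5. These shifts follow from the lengths, and the cause of the others was not tested. The 45 to 125 counts of Bdnf per library limit what can be seen of it. No paired analysis was possible because the labels hold no replicate numbers that the groups share, the numbers 1 to 3 used here being names given in listing order.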
